A study of Mus musculus with 17 samples.

Results

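A pair of linked gene sets was followed across 6 lines of C2C12 cells: the Fat and Dachsous cadherins with their modifier Four-jointed, and target genes of the co-activator YAP. Of the 10 genes listed by symbol, 8 had a row in the deposited count table of 15062 genes. These were Fat1, Fat4 and Fjx1 from the first set, and Ccn1, Ccn2, Ankrd1, Amotl2 and Axl from the second. Fat3 and Dchs1 were not analysed here. Fat4 had been named in an earlier analysis of these data for its higher level in SRF-FOXO1, SRF-ICA1L and SRF-RELA than in pMSCV, so its differences are given as a description with no p-value. The list was chosen by symbol from a pathway, with earlier results of these data known, and Fat4 was selected on that measured difference between the lines.

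C2C12 is an established mouse myoblast line. Per the labels, the lines expressed pMSCV (the empty construct), SRF, or SRF joined to a partner as SRF-FOXO1, SRF-ICA1L, SRF-PDGFRB or SRF-RELA, and all grew in DMEM with 10% fetal bovine serum. SRF, serum response factor, is a transcription factor that binds the CArG box, and the series concerns SRF fusions from soft tissue tumours of muscle-like type. There were 3 libraries in each group and 2 in SRF-PDGFRB, 17 in all, and nothing in the labels says that replicates were separate cultures, so p-values measure only the spread between these libraries, which may be technical.

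Fat and Dachsous proteins are very large cadherins that bind each other across neighbouring cells, and Four-jointed is a Golgi kinase that modifies their extracellular repeats and so tunes that binding. In flies this system sets planar polarity and restrains growth through the Hippo kinase cascade. In that cascade, active LATS kinases keep YAP and its relative TAZ out of the nucleus. Where the cascade is quiet, YAP and TAZ bind TEAD factors and switch on genes such as Ccn1, Ccn2 and Ankrd1. Several of these genes are also textbook targets of SRF. In myoblasts, YAP activity is known for favouring proliferation over differentiation.

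Library totals ran from 20901442 to 23543734 counts. Srf itself lay at 66.6 to 93.8 CPM (counts scaled to a common library total and for library composition) in pMSCV and at 678 to 1673 CPM in SRF. It lay at 71.8 to 105 CPM in SRF-FOXO1, 121 to 279 CPM in SRF-ICA1L, 70.5 to 81.4 CPM in SRF-PDGFRB and 85.0 to 155 CPM in SRF-RELA. All 6 myoblast markers (Myod1, Myf5, Des, Cdh15, Pax7 and Itga7) had a row, and their summed level differed between lines. It was 1487 to 1746 CPM in pMSCV, 721 to 1294 CPM in SRF, 223 to 294 CPM in SRF-FOXO1, 457 to 1063 CPM in SRF-ICA1L and 381 to 703 CPM in SRF-RELA. The 2 SRF-PDGFRB libraries stood apart from each other, at 231 CPM in replicate 1 and 1986 CPM in replicate 2. Of other cell types' markers, 2 of 5 endothelial, 2 of 5 leukocyte and 1 of 4 adipocyte genes had a row, while Pecam1, Kdr, Emcn, Ptprc, Adgre1, Cd3e, Adipoq, Plin1 and Lep had none. Those with a row were low: Cd68 was at 1.91 to 5.33 CPM, Csf1r at most at 2.39 CPM, and Cdh5, Tek and Fabp4, each at 0 in at least 1 library, at most at 2.72, 0.59 and 1.37 CPM.

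Fat4 and Fjx1 lay above the empty vector in SRF-FOXO1, SRF-ICA1L and SRF-RELA, with no overlap between libraries, and Fat1 did so in SRF-FOXO1. Fat4 is a giant cadherin of the Fat family (GRCm38, chromosome 3, 38886940 to 39011985, plus strand). It stood at 8.95, 26.1 and 9.67 CPM in replicates 1, 2 and 3 of pMSCV and at 19.9, 23.6 and 18.4 CPM in those of SRF. It stood at 74.4, 56.7 and 219 CPM in SRF-FOXO1, 26.7, 68.1 and 64.6 CPM in SRF-RELA, 36.5, 49.6 and 45.2 CPM in SRF-ICA1L, and 37.1 and 20.2 CPM in SRF-PDGFRB. Every library of SRF-FOXO1, SRF-ICA1L and SRF-RELA was above all 6 libraries of pMSCV and SRF, by a narrow margin for SRF-RELA replicate 1. The log2 fold change against pMSCV was 2.97 (SE 0.56) in SRF-FOXO1, 1.83 (SE 0.53) in SRF-RELA, 1.55 (SE 0.53) in SRF-ICA1L, 0.94 (SE 0.57) in SRF-PDGFRB and 0.47 (SE 0.52) in SRF. Against SRF it was 2.50 (SE 0.54) in SRF-FOXO1, 1.36 (SE 0.53) in SRF-RELA, 1.08 (SE 0.52) in SRF-ICA1L and 0.47 (SE 0.57) in SRF-PDGFRB. Without SRF-FOXO1 replicate 3 the difference from pMSCV was 2.13. Exons of antisense genes on the other strand share 1209 and 281 bases with Fat4, 487 with Fat1 and 665 with Ccn2, and the strand setting of the counting is not given in the sources used here.

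Fibroblast markers, as a sum, had the same order of libraries as Fat4 within SRF-FOXO1, SRF-ICA1L and SRF-RELA, and not within the other groups. Of 6 such genes, 5 had a row (Thy1 had none), and their summed level in the SRF-FOXO1 replicates was 234, 68.0 and 1785 CPM, the highest and lowest falling in the same libraries as for Fat4. In replicate 3 most of that sum was Dcn, a matrix proteoglycan, at 1622 CPM, while Lum and Dpt were at 0 in at least 1 library of the series. In the other groups the sum ran from 36.5 to 459 CPM (pMSCV), 38.2 to 60.6 CPM (SRF), 52.8 to 161 CPM (SRF-ICA1L), 58.5 to 179.6 CPM (SRF-PDGFRB) and 31.8 to 219 CPM (SRF-RELA). Within SRF-ICA1L the sums of replicates 1, 2 and 3 were 52.8, 161 and 133 CPM, and within SRF-RELA 31.8, 219 and 113 CPM, both in the order of Fat4. The pMSCV library with 459 CPM was replicate 2, which also had the highest Fat4 of that group. The lowest sum of pMSCV was in replicate 3 and its lowest Fat4 in replicate 1. In SRF-PDGFRB the order was opposite, with the higher sum in replicate 2 and the higher Fat4 in replicate 1, and in SRF replicate 3 had the highest sum and the lowest Fat4. Pericyte and smooth muscle markers (3 of 6 with a row: Cspg4, Myh11 and Cnn1, and not Rgs5, Kcnj8 or Abcc9) lay above pMSCV in the 3 lines in which Fat4 and Fjx1 did, and in SRF. Their sum was 52.8 to 58.3 CPM in pMSCV, 61.6 to 73.1 CPM in SRF, 61.8 to 99.4 CPM in SRF-FOXO1, 67.3 to 149 CPM in SRF-ICA1L, 65.0 to 211 CPM in SRF-RELA and 37.7 to 50.2 CPM in SRF-PDGFRB. Of the 3, Myh11 was called in SRF-RELA against pMSCV with the replicate number as a block (4.96, SE 0.96, edgeR adjusted p = 0.016). That fit called 6.07% of all genes. Myh11 was a weak gene, at 0.044 to 14.1 CPM over the series. The part of these markers, and of the myoblast markers above, in the Fat4 and Fjx1 values was not tested. In such bulk samples, a change in the share of cells that express a gene and a change in RNA per cell cannot be told apart.

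Fjx1, the mouse Four-jointed gene (chromosome 2, 102449366 to 102452499, minus strand, 1 exon block of 3.13 kb), was a weak gene, with 5 to 77 counts per library. Its levels were 0.32, 0.75 and 0.23 CPM in pMSCV and 0.50, 0.46 and 0.78 CPM in SRF. They were 1.53, 1.08 and 3.43 CPM in SRF-FOXO1, 1.81, 2.14 and 1.03 CPM in SRF-RELA, 2.50, 1.70 and 1.19 CPM in SRF-ICA1L, and 0.73 and 0.85 CPM in SRF-PDGFRB. All 9 libraries of SRF-FOXO1, SRF-ICA1L and SRF-RELA exceeded all 6 of pMSCV and SRF. The log2 fold change against pMSCV was 2.19 (SE 0.55) in SRF-FOXO1, 2.03 (SE 0.54) in SRF-ICA1L and 1.91 (SE 0.54) in SRF-RELA. None of these passed edgeR's quasi-likelihood test over all genes (adjusted p = 0.058, 0.66 and 0.41). DESeq2 called the SRF-FOXO1 difference (2.21, adjusted p = 0.0052).

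Same-numbered libraries of SRF-RELA, SRF-ICA1L, SRF and pMSCV deviated together, so the numbers paired them. With the replicate number as a block in those 12 libraries, Fjx1 rose against pMSCV in SRF-ICA1L (2.04, SE 0.46, edgeR adjusted p = 0.043) and in SRF-RELA (1.92, SE 0.46, edgeR adjusted p = 0.034). It was higher in 3 of 3 same-numbered pairs in both. The log2 ratios of the pairs were 2.96, 1.18 and 2.35 for SRF-ICA1L and 2.49, 1.52 and 2.13 for SRF-RELA. Against SRF in the same fit the values were 1.55 (SE 0.44, edgeR adjusted p = 0.29) and 1.42 (SE 0.44, edgeR adjusted p = 0.16), which did not pass. The pair ratios for Fat4 against pMSCV, given without a test, were 2.03, 0.92 and 2.22 in SRF-ICA1L and 1.58, 1.38 and 2.74 in SRF-RELA.

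Fat1, the other giant Fat cadherin in the table (chromosome 8, 44935447 to 45052257, plus strand), was more abundant per length than Fat4. Its median over the 17 libraries was 26.8 CPM per kilobase of exon, against 2.13 CPM per kilobase for Fat4 and 0.33 CPM per kilobase for Fjx1. It stood at 202, 147 and 394 CPM in pMSCV, 283, 461 and 473 CPM in SRF and 455, 832 and 547 CPM in SRF-FOXO1. The SRF-FOXO1 libraries were above all pMSCV libraries but overlapped SRF. The difference from pMSCV was 1.30 (SE 0.39, edgeR adjusted p = 0.093), and DESeq2 called it (1.31, adjusted p = 0.019). In SRF-ICA1L the levels were 376.7, 470.1 and 419 CPM and in SRF-RELA 305, 393 and 432 CPM, both overlapping pMSCV, whose replicate 3 was high. In SRF-PDGFRB they were 704 and 266 CPM, with the higher value in the library that was low in myoblast markers. In same-numbered pairs Fat1 was higher than in pMSCV in 3 of 3 for SRF-ICA1L (log2 ratios 0.90, 1.68 and 0.09), for SRF-RELA (0.59, 1.43 and 0.13) and for SRF (0.48, 1.65 and 0.27). With the block its values were 0.84 (SE 0.25, edgeR adjusted p = 0.11), 0.66 (SE 0.25, edgeR adjusted p = 0.16) and 0.75 (SE 0.25, edgeR adjusted p = 0.27). No edgeR comparison called Fat1. The order of group means was SRF-FOXO1, SRF-PDGFRB, SRF-ICA1L, SRF, SRF-RELA and pMSCV, and every neighbour in it overlapped the next.

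**Figure D1:**
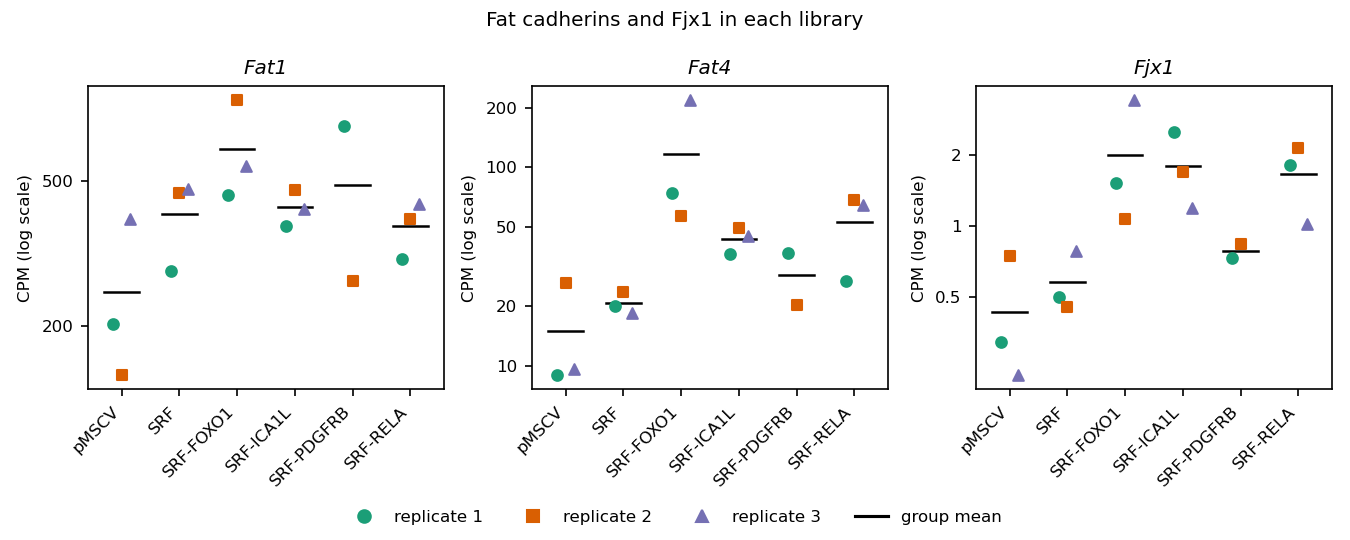
Levels of Fat1, Fat4 and Fjx1 in CPM (log axis) in each library of the 6 lines. Points are libraries, with colour and shape for the replicate number, and bars are group means of 3 libraries (2 for SRF-PDGFRB). Fat4 and Fjx1 in SRF-FOXO1, SRF-ICA1L and SRF-RELA lie above every pMSCV and SRF library, and Fat4 peaks at 219 CPM in SRF-FOXO1 replicate 3.

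The 5 YAP targets did not move as a set. Ankrd1, a cardiac ankyrin repeat protein of muscle, was lower in SRF-FOXO1 and SRF-RELA, whereas Ccn1 and Ccn2, both secreted matricellular proteins, overlapped pMSCV in every line but one (Ccn2 in SRF-RELA). Of the other 2, Amotl2 (an angiomotin that binds YAP) and Axl (a receptor tyrosine kinase) stayed within 1.97-fold to 2.72-fold from the lowest to the highest library. Ccn1 was the most abundant per length, with a median of 249.3 CPM per kilobase, followed by Ankrd1 at 142, Axl at 114, Ccn2 at 45.3 and Amotl2 at 24.1 CPM per kilobase.

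Ankrd1 (chromosome 19, 36111961 to 36120099, minus strand) stood at 655, 429.7 and 850.1 CPM in pMSCV and at 568, 409 and 926 CPM in SRF. It stood at 285, 350.2 and 275 CPM in SRF-FOXO1, 342, 296 and 392 CPM in SRF-RELA, 537, 290.3 and 489 CPM in SRF-ICA1L, and 185 and 743 CPM in SRF-PDGFRB. All libraries of SRF-FOXO1 and SRF-RELA were below all of pMSCV and SRF, while SRF-ICA1L overlapped both. The log2 fold change against pMSCV was -1.09 (SE 0.43, edgeR adjusted p = 0.18) in SRF-FOXO1, -0.91 (SE 0.43, edgeR adjusted p = 0.62) in SRF-RELA and -0.56 (SE 0.43, edgeR adjusted p = 0.93) in SRF-ICA1L. With the block, Ankrd1 fell in SRF-RELA against pMSCV (-0.85, SE 0.17, edgeR adjusted p = 0.017), with pair ratios of -0.94, -0.54 and -1.12. The SRF-ICA1L value with the block was -0.54 (SE 0.17, edgeR adjusted p = 0.12), lower in 3 of 3 pairs. Against SRF the blocked value for SRF-RELA was -0.81 (SE 0.17, edgeR adjusted p = 0.060), also lower in 3 of 3 pairs.

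Markers of muscle differentiation moved with Ankrd1 in SRF-PDGFRB, pMSCV and SRF and not in the other groups. All 8 of them had a row, and their summed level was 9.64 CPM in SRF-PDGFRB replicate 1 and 474 CPM in replicate 2, where Ankrd1 was at 185 and 743 CPM. The sum was 124 to 250.1 CPM in pMSCV, 32.5 to 93.5 CPM in SRF, 30.3 to 52.0 CPM in SRF-FOXO1, 47.2 to 78.0 CPM in SRF-ICA1L and 32.9 to 249.6 CPM in SRF-RELA. Ckm and Mymx were at 0 in at least 1 library. SRF had a low sum with an Ankrd1 level overlapping pMSCV. Within pMSCV and within SRF the libraries had the same order in both. Within SRF-RELA the order was reversed, with sums of 75.4, 249.6 and 32.9 CPM in replicates 1, 2 and 3. The highest SRF-FOXO1 sum, 52.0 CPM, was in the library with the lowest Ankrd1 of that group. The lowest SRF-ICA1L sum, 47.2 CPM, was in the library with the highest. The part of these markers in the Ankrd1 values was not tested.

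Ccn2, also known as connective tissue growth factor (chromosome 10, 24595442 to 24598683, plus strand), stood at 17.8, 95.7 and 129.6 CPM in pMSCV and at 80.4, 68.3 and 305 CPM in SRF. It stood at 63.4, 172 and 179.8 CPM in SRF-FOXO1, 169, 160.4 and 149 CPM in SRF-RELA, 348, 98.2 and 218 CPM in SRF-ICA1L, and 18.7 and 94.2 CPM in SRF-PDGFRB. The SRF-RELA libraries were close to each other and just above the highest pMSCV library. No comparison called Ccn2. The largest difference from pMSCV was 1.45 (SE 0.78, edgeR adjusted p = 0.83) in SRF-ICA1L, and it was 0.97 without pMSCV replicate 1, the library at 17.8 CPM, and 0.95 without SRF-ICA1L replicate 1.

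Ccn1, formerly Cyr61 (chromosome 3, 145646976 to 145649981, minus strand), stood at 457, 1280.0 and 287 CPM in pMSCV, 553, 452 and 317 CPM in SRF and 586, 834 and 872 CPM in SRF-FOXO1. It stood at 715, 996 and 377.2 CPM in SRF-RELA, 503, 649 and 315 CPM in SRF-ICA1L, and 449 and 301 CPM in SRF-PDGFRB. The lowest SRF-FOXO1 library was above the highest SRF library, but pMSCV replicate 2 was the highest of the 17. The log2 fold change of SRF-FOXO1 was 0.79 (SE 0.48, edgeR adjusted p = 0.36) against SRF and 0.18 (SE 0.48, edgeR adjusted p = 0.86) against pMSCV. The latter became 1.03 without pMSCV replicate 2. That library also had the lowest summed proliferation markers, 931 CPM against 1381 to 2986 CPM in the other 16 libraries, and its replicate-2 counterparts in SRF-ICA1L (1752 CPM) and SRF-RELA (1381 CPM) were the lowest of their groups in those markers and the highest in Ccn1. In SRF the sums were 2340, 2461 and 2866 CPM in replicates 1, 2 and 3, and in SRF-PDGFRB 1744 and 2470 CPM in replicates 1 and 2. In every group but SRF-FOXO1 the order of libraries in Ccn1 was the reverse of that in the markers. The SRF-FOXO1 order was the other way, with 1721, 2127 and 2231 CPM for the markers. There the lowest and highest Ccn1 fell in the same libraries as the lowest and highest sums. The part of proliferation in the Ccn1 values was not tested.

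Amotl2 (chromosome 9, 102716672 to 102733418, plus strand) was at 95.5, 259.7 and 150.02 CPM in pMSCV, 150.3, 132 and 154 CPM in SRF and 204, 191 and 198 CPM in SRF-FOXO1. The narrow SRF-FOXO1 range lay above SRF and inside the wide pMSCV range. The difference from SRF was 0.45 (SE 0.27, edgeR adjusted p = 0.35). With the block of those 2 groups alone it was 0.46 (SE 0.12, edgeR adjusted p = 0.072). The same 2 groups without the block gave 0.46 (SE 0.12, edgeR adjusted p = 0.065), so the smaller SE was not due to the block. In the other lines Amotl2 ran from 115 to 177 CPM.

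Axl (chromosome 7, 25757273 to 25788705, minus strand) was at 603, 499 and 787 CPM in pMSCV, 636, 573 and 749 CPM in SRF and 444, 470.1 and 538 CPM in SRF-FOXO1. It was at 582, 462 and 636 CPM in SRF-RELA, 692, 448 and 650.3 CPM in SRF-ICA1L, and 399 and 545 CPM in SRF-PDGFRB. Both SRF-FOXO1 and SRF-PDGFRB lay below all SRF libraries. The differences from SRF were -0.43 (SE 0.21, edgeR adjusted p = 0.28) and -0.47 (SE 0.24, edgeR adjusted p = 0.91).

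**Figure D2:**
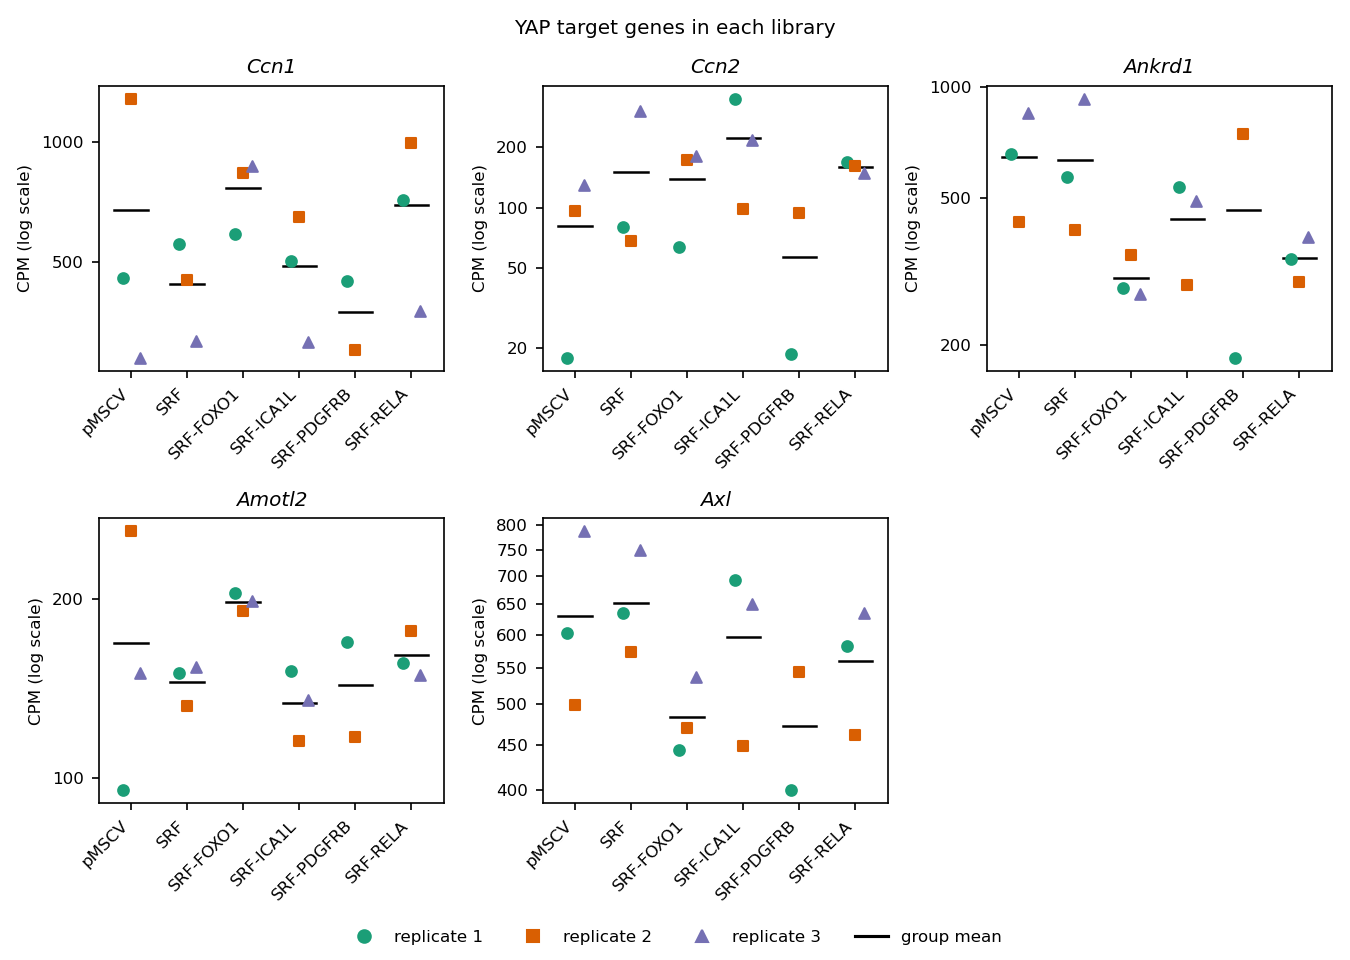
Levels of the 5 YAP targets in CPM (log axes, each with its own range) in each library of the 6 lines. Points are libraries, with colour and shape for the replicate number, and bars are group means. Ankrd1 is below every pMSCV and SRF library in SRF-FOXO1 and SRF-RELA, and Ccn1 is highest in pMSCV replicate 2 at 1280.0 CPM.

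Counted over comparisons, few members passed the test. Over the 7 members other than Fat4, edgeR's fit of 17 libraries called 0 in each of the 5 comparisons with pMSCV and 0 in each of the 4 comparisons with SRF. The share of all genes called was 0.71% for SRF-FOXO1, 0.00664% for SRF, 0% for SRF-ICA1L, 0.0199% for SRF-PDGFRB and 0% for SRF-RELA against pMSCV. Against SRF it was 0.00664% for SRF-FOXO1, 0% for SRF-ICA1L, 0.0531% for SRF-PDGFRB and 0.00664% for SRF-RELA. At an unadjusted p under 0.05 there were 3 of 7 for SRF-FOXO1 against pMSCV, where 3151 of all 15062 genes met that cut. There was 1 of 7 for each of SRF-ICA1L, SRF-PDGFRB and SRF-RELA (6.23%, 7.7% and 8.05% of all genes), and 0 for SRF (3.34%). Against SRF there were 2 of 7 for SRF-FOXO1 (19.2% of all genes), 1 of 7 for SRF-ICA1L (1.56%), 1 of 7 for SRF-RELA (3.21%) and 0 for SRF-PDGFRB (5.03%). DESeq2 called 2 of 7 (Fat1 and Fjx1) in SRF-FOXO1 against pMSCV, where it called 9.07% of all genes, and 1 of 7 (Fjx1) in SRF-FOXO1 against SRF, where it called 4.3%. It called 0 in the other 7 comparisons. Between the fusion lines themselves, edgeR called 0 of 7 in each of 6 comparisons. Against SRF-PDGFRB, 1 of 7 had an unadjusted p under 0.05 in SRF-FOXO1 (3.87% of all genes) and 1 of 7 in SRF-ICA1L (2.2%). The shares of all genes called by adjusted p in these comparisons were 0.0266% and 0.0332%, with 0.00664% for SRF-PDGFRB against SRF-RELA and 0% for the rest. DESeq2 results are not given for these comparisons.

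With the block in 12 libraries, 1 of 7 members was called in SRF-ICA1L against pMSCV (Fjx1, higher), with 2.81% of all genes called and 1.21% called higher, and 2 of 7 in SRF-RELA against pMSCV (Fjx1 and Ankrd1), with 6.07% of all genes called. The same 12 libraries without the block gave 0 of 7 in both by edgeR, a fit for which no share of all genes is given here. The blocked fit of SRF-FOXO1 with SRF alone called 0 of 7 by edgeR, with 1.61% of all genes called. There, 6 of 7 members and 30.9% of all genes had an unadjusted p under 0.05. Those 2 groups alone without the block also gave 0 of 7 by edgeR, with 2.99% of all genes called.

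Ranges that did not overlap were more common than calls. Over the 7 members other than Fat4, SRF-FOXO1 had 2 wholly higher than pMSCV (Fat1 and Fjx1) and 1 wholly lower (Ankrd1), where 23.0% of all genes did not overlap. SRF-RELA had 2 higher (Fjx1 and Ccn2) and 1 lower (Ankrd1) against 11.1% of all genes, and SRF-ICA1L had 1 higher (Fjx1) against 10.2%. SRF and SRF-PDGFRB had 0 of 7, where 9.16% and 15.9% of all genes did not overlap. Against SRF, 3 of 7 were wholly higher in SRF-FOXO1 (Fjx1, Ccn1 and Amotl2) and 2 wholly lower (Ankrd1 and Axl), beside 35.4% of all genes. SRF-RELA had 1 higher (Fjx1) and 1 lower (Ankrd1) beside 10.9%, SRF-ICA1L 1 higher (Fjx1) beside 7.58%, and SRF-PDGFRB 1 lower (Axl) beside 25.7%. The comparisons with one reference share its libraries.

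**Figure D3:**
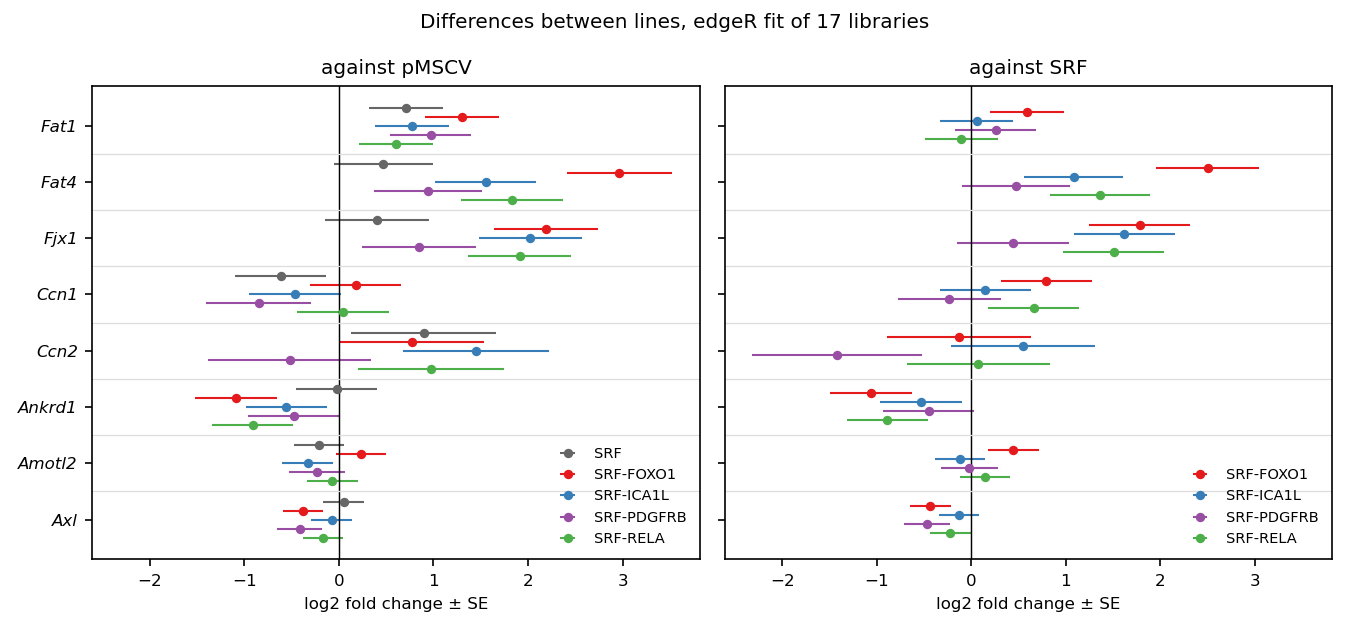
Log2 fold change of the 8 members against pMSCV (left) and against SRF (right) from the edgeR fit of 17 libraries, with bars of 1 standard error and a colour for each line. Fat4 and Fjx1 are farthest to the right in SRF-FOXO1, SRF-ICA1L and SRF-RELA, and Ankrd1 lies to the left in every fusion line.

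The members differed in how much of their variation followed the replicate number. In the 12 paired libraries the number accounted for 75.2% of the variance of log2 CPM of Axl and 66.9% of that of Ccn1, against 11.8% and 12.3% for the group. Fjx1 and Fat4 were the reverse, with 5.94% and 15.9% for the number and 77.9% and 72.3% for the group. Fat4 was chosen on a difference between these lines, so its large group share follows in part from that choice and supports nothing. Ankrd1 was split, with 43.3% for the number and 47.1% for the group. The medians over all genes were 49.6% for the number and 19.5% for the group. In each of the 4 paired groups replicate 3 was lowest in Ccn1, and replicate 2 was lowest in Ankrd1 and in Axl and highest in Fat4. Amotl2 followed neither, with 80.1% of its variance left over.

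**Figure D4:**
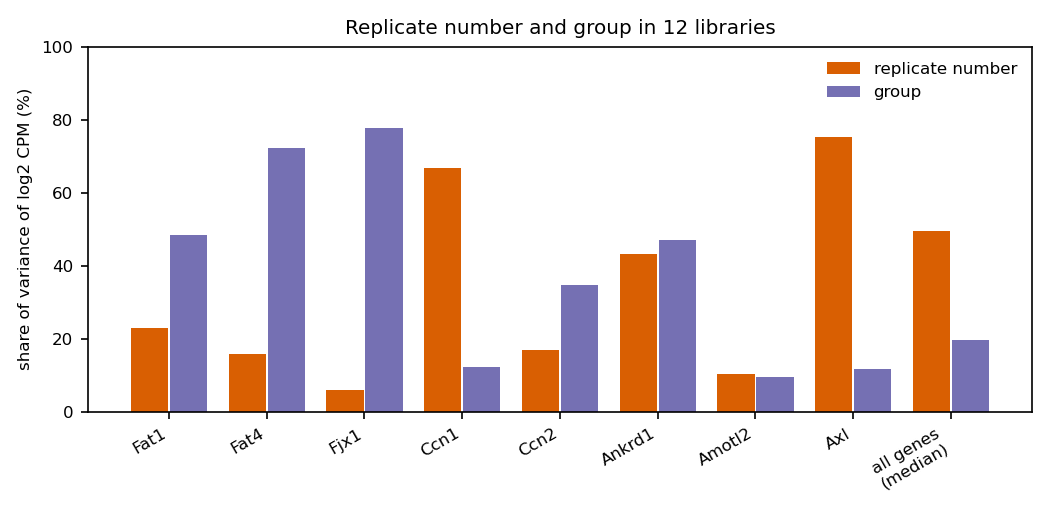
Share of the variance of log2 CPM (%) that goes with replicate number and with group in the 12 paired libraries (all but SRF-FOXO1 and SRF-PDGFRB), for each member and as the median over all genes. Replicate number takes 75.2% for Axl and 66.9% for Ccn1, and group takes 77.9% for Fjx1. The group share of Fat4, 72.3%, follows in part from its choice on a difference between these lines.

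Across the 17 libraries, which share lines and replicate numbers, the log2 CPM of Fat4 correlated with that of Fjx1 (Pearson r = 0.826) and inversely with Ankrd1 (r = -0.711), given as descriptions. Ankrd1 went with Axl (r = 0.827) and Ccn1 with Amotl2 (r = 0.627), while the related genes Ccn1 and Ccn2 did not go together (r = 0.031). The genes most like Fat4 were Pkd2 (r = 0.964), a calcium-permeable channel protein, Synm (0.949), an intermediate filament protein, Mylk3 (0.938), a myosin light chain kinase, Adamtsl3 (0.935) and Col12a1 (0.929), a collagen. Those most like Ccn2 were Metrnl (0.897), Tnfsf15 (0.871), Unc5b (0.835), Col5a1 (0.831) and Cers5 (0.819).

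The genes of YAP and TAZ themselves spanned a narrow range. Yap1 ran from 99.0 to 128 CPM over the 17 libraries, with 99.3 to 104 CPM in pMSCV and 106 to 123 CPM in SRF-FOXO1, and Wwtr1, which encodes TAZ, from 200.5 to 309 CPM. Their differences from pMSCV in SRF-FOXO1 were 0.16 (SE 0.12, edgeR adjusted p = 0.46) and 0.20 (SE 0.18, edgeR adjusted p = 0.57). The kinase gene Lats2, itself a known YAP target, was at 29.5, 38.3 and 37.1 CPM in pMSCV and 59.6, 64.2 and 52.2 CPM in SRF-FOXO1. These ranges did not overlap, and the difference of 0.75 (SE 0.23) had an edgeR adjusted p of 0.096. Of the 20 listed Hippo kinases and regulators, all in the table, edgeR called 0 in each comparison with pMSCV, with 7 of 20 at an unadjusted p under 0.05 in SRF-FOXO1, a cut that 3151 of all 15062 genes met. Their median log2 fold change there was 0.05, beside 0.00080 over all genes.

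The TEAD factors, which carry YAP to DNA, were not alike. Tead2 fell in SRF-FOXO1: it was at 84.2, 75.6 and 78.8 CPM in pMSCV and 36.7, 37.8 and 12.7 CPM in SRF-FOXO1 (-1.45, SE 0.30, edgeR adjusted p = 0.048). All other lines, SRF included, also lay wholly below pMSCV, at 45.8 to 52.5 CPM in SRF, 47.5 to 63.7 CPM in SRF-ICA1L, 45.2 to 64.9 CPM in SRF-PDGFRB and 42.5 to 53.1 CPM in SRF-RELA. It was the only one of 9 YAP, TAZ, TEAD and VGLL genes in the table (of 10 listed) that this fit called, and no gene of the table was called there when replicate 1 or replicate 3 of either group was left out. Tead2 also fell in SRF-RELA with the block (-0.74, SE 0.14, edgeR adjusted p = 0.012). Tead1, the most abundant in reads of the 3 described here, was at 161 to 235 CPM in pMSCV and 199.96 to 337 CPM in SRF-FOXO1 (0.42, SE 0.21, edgeR adjusted p = 0.26). Tead4, which is known for its part in myoblast differentiation, was at 57.2, 10.0 and 43.0 CPM in pMSCV and 17.8, 20.5 and 9.45 CPM in SRF-FOXO1 (-1.21, SE 0.58, edgeR adjusted p = 0.25). Vgll2, a TEAD cofactor of skeletal muscle, fell with the block in SRF-ICA1L (-2.33, SE 0.37, edgeR adjusted p = 0.013) and SRF-RELA (-2.34, SE 0.38, edgeR adjusted p = 0.0076). Its lowest group mean was in SRF-FOXO1, at 0.49 to 0.92 CPM against 6.39 to 31.2 CPM in pMSCV (-4.68, SE 1.27, edgeR adjusted p = 0.071). The lowest single library was SRF-PDGFRB replicate 1, at 0.32 CPM, while replicate 2 was at 29.1 CPM. The SRF-FOXO1 libraries and SRF-PDGFRB replicate 1 were also the lowest in the myoblast marker sum.

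Other planar polarity genes went both ways. Among 8 of 12 listed classical cadherins and catenins in the table, the myoblast cadherin Cdh15 fell with the block in SRF-ICA1L (-1.42, SE 0.21, edgeR adjusted p = 0.011) and SRF-RELA (-2.01, SE 0.22, edgeR adjusted p = 0.0022), and Cdh11 rose in SRF-RELA (2.13, SE 0.44, edgeR adjusted p = 0.020). Cdh15 also fell in SRF-RELA against SRF (-1.31, SE 0.21, edgeR adjusted p = 0.033). Dchs2, the Dachsous gene in the table, was at 2.17, 3.22 and 1.22 CPM in pMSCV and 11.2, 1.78 and 32.4 CPM in SRF-FOXO1, the same order of replicates as for Fat4. Its difference was 2.78 (SE 0.85, edgeR adjusted p = 0.098). Of 17 listed Fat, Dachsous and planar polarity genes beside the members, 15 had a row, and edgeR without the block called 0 in each comparison with pMSCV, with 5 of 15 at an unadjusted p under 0.05 in SRF-FOXO1 (3151 of all 15062 genes). With the block, SRF-RELA had Prickle2 (1.31, SE 0.30, edgeR adjusted p = 0.029) and Fzd6, a Wnt receptor (0.46, SE 0.12, edgeR adjusted p = 0.041), higher and Prickle1 (-1.55, SE 0.25, edgeR adjusted p = 0.0073) lower. SRF-ICA1L had Fzd6 higher (0.53, SE 0.12, edgeR adjusted p = 0.038).

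A second list of 20 YAP and TEAD targets, all in the table, had a median log2 fold change against pMSCV of 0.58 in SRF-FOXO1, 0.32 in SRF-RELA, 0.15 in SRF-ICA1L and -0.07 in SRF-PDGFRB, beside medians over all genes of 0.00080, -0.0080, -0.0025 and 0.0084. In SRF-FOXO1, 14 of 20 were above 0. Without the block edgeR called 0 of the 20 in each of these comparisons, while 5, 3, 1 and 2 had an unadjusted p under 0.05 (3151, 1212, 938 and 1160 of all 15062 genes). The blocked fit had more: 3 of 20 were higher in both SRF-ICA1L and SRF-RELA against pMSCV and 0 were lower, beside 1.21% and 2.85% of all genes called higher. They were F3, which encodes tissue factor, Crim1, a transmembrane protein, and Foxf2, a forkhead factor. F3 had values of 1.34 and 1.54 (SE 0.27 in both, edgeR adjusted p = 0.030 and 0.010), and Foxf2 of 0.83 and 1.13 (SE 0.19 in both, edgeR adjusted p = 0.046 and 0.0086). Crim1 was at 31.2, 50.4 and 42.2 CPM in pMSCV, 118, 96.0 and 72.4 CPM in SRF-RELA and 134, 84.4 and 64.8 CPM in SRF-ICA1L, both above pMSCV with no overlap. SRF, at 60.4 to 72.5 CPM, and SRF-FOXO1, at 117 to 138 CPM, were also wholly above pMSCV. Its values with the block were 1.17 (SE 0.24, edgeR adjusted p = 0.018) and 1.14 (SE 0.24, edgeR adjusted p = 0.034). F3 was also higher in SRF-RELA than in SRF (1.502, SE 0.27, edgeR adjusted p = 0.041), and stood at 260.2, 511 and 62.8 CPM in SRF-RELA and 69.6, 143 and 36.7 CPM in SRF. In the blocked fit of SRF-FOXO1 with SRF alone, 5 genes of these lists were called, named here after their values were seen. The 5 pathway lists beside the members had 15, 20, 9, 20 and 8 genes in the table. Of all 15062 genes, that fit called 1.61%, with 0.797% higher and 0.817% lower. Crim1 (0.98, SE 0.12), Foxf2 (1.24, SE 0.19) and the TEAD cofactor gene Vgll4 (0.91, SE 0.13) were higher, with edgeR adjusted p of 0.037, 0.047 and 0.046. Wwc1, which encodes the Hippo regulator KIBRA (-2.39, SE 0.21), and Cdh15 (-2.93, SE 0.24) were lower, both with an edgeR adjusted p of 0.027.

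**Figure D5:**
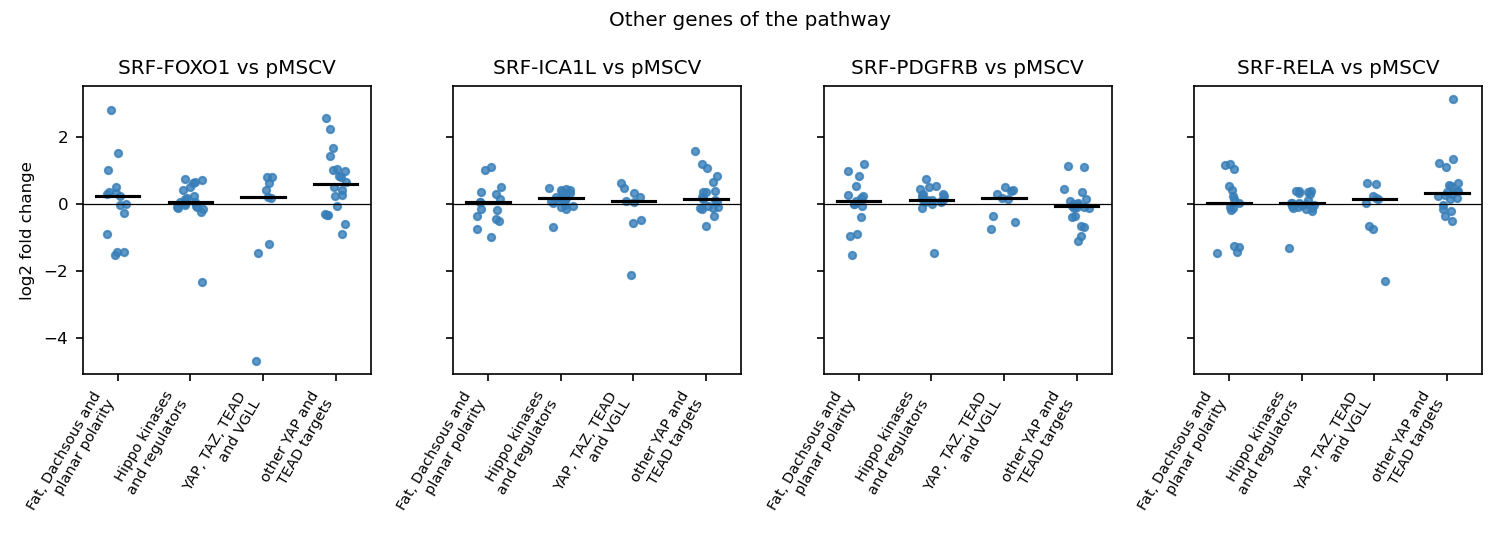
Log2 fold change against pMSCV of the other pathway genes in 4 lists, in the 4 fusion lines, from the edgeR fit of 17 libraries. Each point is a gene and each bar the list's median. The medians of the second list of YAP and TEAD targets are 0.58 in SRF-FOXO1 and -0.07 in SRF-PDGFRB, and the lowest point, in SRF-FOXO1, is Vgll2.

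The sequence before the start was read for the members, among which Ankrd1 and Axl lay lower in SRF-FOXO1 than in SRF while Ccn1 and Amotl2 lay higher. RefSeq windows of 300 bases (250 before the start and 50 after it, GRCm38.p6) were given for 6 of the 8 members, not Fjx1 and Ccn2. The TEAD core motif GGAATG, searched on both strands, was present in Fat1, Ccn1, Ankrd1, Amotl2 and Axl and not in Fat4. Of 32851 windows in the table, 14.7% hold it. The members were listed as YAP targets, so such a match is a description and not a site of binding. The CArG box of SRF had no match in the 6 windows and one in 1.63% of all windows. The 250 bases before the start of Ccn1 (chr3:145649986-145650235, minus strand), Axl (chr7:25788734-25788983, minus strand) and Fat4 (chr3:38886690-38886939, plus strand), which lie in no GENCODE exon of their gene, are shown to compare a target higher in SRF-FOXO1 than in SRF, a target lower there and the cadherin without a match. Capitals mark GGAATG or its reverse complement.
Ccn1: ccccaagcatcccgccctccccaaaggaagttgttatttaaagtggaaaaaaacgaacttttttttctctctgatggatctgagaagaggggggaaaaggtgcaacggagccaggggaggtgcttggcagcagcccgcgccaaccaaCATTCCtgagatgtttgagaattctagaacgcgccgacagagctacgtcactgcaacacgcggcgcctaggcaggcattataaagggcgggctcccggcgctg
Axl: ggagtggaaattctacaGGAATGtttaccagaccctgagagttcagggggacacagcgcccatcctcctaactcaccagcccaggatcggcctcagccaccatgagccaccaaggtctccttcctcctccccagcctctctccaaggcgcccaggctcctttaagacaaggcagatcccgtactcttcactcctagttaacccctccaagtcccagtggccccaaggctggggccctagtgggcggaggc
Fat4: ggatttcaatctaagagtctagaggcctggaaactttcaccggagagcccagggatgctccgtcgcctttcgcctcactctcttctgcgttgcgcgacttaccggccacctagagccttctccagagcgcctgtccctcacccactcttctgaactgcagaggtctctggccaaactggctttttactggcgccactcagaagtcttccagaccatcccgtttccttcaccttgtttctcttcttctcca
The matches in Ankrd1 and Amotl2 are shown with 10 bases on each side, read along the gene, since their windows overlap GENCODE exons. Ankrd1 had 2 matches, at -210 and -123 from the RefSeq start, and Amotl2 1, at -65.
Ankrd1 -210 (chr19:36120039-36120064, minus strand): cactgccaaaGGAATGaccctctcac
Ankrd1 -123 (chr19:36119952-36119977, minus strand): cactaagtctGGAATGaaaattcacc
Amotl2 -65 (chr9:102717729-102717754, plus strand): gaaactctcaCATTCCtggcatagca
Ccn1 had its match at -103 and Axl at -233. Ankrd1 and Axl, with 2 and 1 matches, lay lower in SRF-FOXO1 than in SRF, and Ccn1 and Amotl2, with 1 each, lay higher. Fat1, also with a match, overlapped SRF. None of these differences passed (edgeR adjusted p = 0.22 for Ankrd1, 0.28 for Axl, 0.36 for Ccn1, 0.35 for Amotl2 and 0.39 for Fat1). Nothing is drawn from their directions about the motif. The RefSeq start of Fat1 lies 14761 bases inside the GENCODE gene, so its window does not cover the GENCODE start, and that match is not shown.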

How the data were processed

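Polyadenylated RNA of the C2C12 lines was sequenced as stranded libraries, per the labels' protocols. The authors deposited raw read counts per gene. Per the submitters' processing notes, FastQC 0.11.8, Trimmomatic 0.39, HISAT2, featureCounts and Subread 2.0.0 were used with build GRCm38; the annotation and strand setting are not given in the sources used here. Every gene in the table has at least 10 counts in at least 3 libraries.

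The counts were fitted with edgeR 4.0.16 (R 4.3.3, limma 3.58.1): TMM scaling, 1 term per group, robust quasi-likelihood test over all 17 libraries, Benjamini-Hochberg adjustment over 15062 genes, with a threshold of 0.05 on that adjusted p. Standard errors are the size of the log2 fold change divided by the square root of F. Log2 CPM used a prior count of 2. DESeq2 1.42.0 was an alternative. Descriptions used Python 3.11.15, pandas 2.3.3 and numpy 2.4.6. The fit was tested on simulated data. The common biological coefficient of variation was 36.5%, which limits the differences that can be called.

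Deviations of same-numbered libraries from their group means correlated at 0.392 to 0.789 among SRF-RELA, SRF-ICA1L, SRF and pMSCV, and those of different numbers at 0.114 at most, so these 12 were also fitted with the replicate number as a block. The pairing comes from these correlations, not from the labels. SRF-FOXO1 paired with SRF only, and weakly (0.22, 0.253 and 0.33, with different numbers at 0.079 at most). Some of its correlations with libraries of another number in other groups were higher. SRF-FOXO1 replicate 2 was at 0.509 with SRF-PDGFRB replicate 1 and at 0.421 with SRF-RELA replicate 1.

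The members and lists were chosen with earlier results of these data known. All members were described. From each list, genes called in the fit of 17 libraries or the blocked fit of 12 were named, at most 4 a list and comparison, with Yap1, Wwtr1, Tead1, Tead4, Lats2 and Dchs2 always. Likeness was ranked by Pearson correlation of log2 CPM over 17 libraries, for Fat4 and Ccn2. Alternatives were other scalings, filters, dispersions, sample sets, blocks and each library left out. Gene positions are from GENCODE M21 and sequences from RefSeq (GRCm38.p6).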

Additional observations from a re-analysis of the deposited data

How the results depend on the processing

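Over the 7 members other than Fat4, SRF-FOXO1 against pMSCV had 0 called, with 107 of all genes. The count was 2 with DESeq2 (1363 of all genes), 1 with a replicate block over 17 libraries (1021) and 0 with only the 2 groups compared (29). Leaving out a library gave 0 to 1: 0 without pMSCV replicate 1 or 3 or SRF-FOXO1 replicate 1 or 3, where 0 of all genes were called, and 1 (Fjx1) without replicate 2 of pMSCV (355 of all genes) or of SRF-FOXO1 (195). The members' counts thus moved with those of the whole table. Fjx1 ran from 1.56 to 2.83 there. The replicate block in 12 libraries gave 1 for SRF-ICA1L (423 of all genes) and 2 for SRF-RELA (914) against pMSCV, from 0, and DESeq2 gave 1 for SRF-FOXO1 against SRF (597), from 0. With Fat4, whose own calls support nothing since it was chosen on them, SRF-FOXO1 against pMSCV goes from 1 to 3, 2 and 0 and to 0 to 2 in the same order, and the last 3 counts are 2, 3 and 2. The cause was not tested. Libraries were left out of the fit without the block only, and not for the pathway genes. The filter of 10 counts in all 17 libraries removed Fjx1, so it has no value there.

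Of 72 log2 fold changes of members, 28 changed sign under some alternative, none above 0.90 in size. Of these, 2 did so beyond leaving out a library: Ccn2 in SRF-FOXO1 against SRF (0.072 with the replicate block of those 2 groups) and Amotl2 in SRF-PDGFRB against SRF (0.039 with library totals only). Leaving out 1 library gave these ranges. For SRF against pMSCV they were -0.98 to 0.24 (Ccn1), -0.12 to 1.41 (Ccn2), -0.40 to 0.23 (Ankrd1), -0.495 to 0.24 (Amotl2) and -0.10 to 0.24 (Axl). For SRF-FOXO1 against pMSCV they were -0.185 to 1.03 (Ccn1) and -0.0495 to 0.69 (Amotl2). For SRF-ICA1L against pMSCV they were -0.83 to 0.39 (Ccn1), -0.61 to 0.12 (Amotl2) and -0.23 to 0.12 (Axl). For SRF-PDGFRB against pMSCV they were -1.21 to 0.0026 (Ccn1), -2.12 to 0.20 (Ccn2), -1.81 to 0.19 (Ankrd1) and -0.54 to 0.22 (Amotl2). For SRF-RELA against pMSCV they were -0.32 to 0.91 (Ccn1), -0.35 to 0.39 (Amotl2) and -0.32 to 0.023 (Axl). Against SRF, SRF-FOXO1 gave -0.48 to 0.90 (Ccn2) and SRF-ICA1L gave -0.15 to 0.18 (Fat1), -0.11 to 0.39 (Ccn1) and -0.25 to 0.040 (Axl). SRF-PDGFRB gave -0.62 to 0.79 (Fat1), -0.042 to 0.85 (Fat4), -0.56 to 0.028 (Ccn1), -1.78 to 0.21 (Ankrd1) and -0.32 to 0.22 (Amotl2), and SRF-RELA gave -0.31 to 0.033 (Fat1) and -0.27 to 1.10 (Ccn2).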
